A study of Mus musculus with 34 samples.

Results

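The part of the hepatic fenofibrate response that differed between mice with and without the nuclear receptor PPARA in the whole body is described here, as the change with fenofibrate in WT livers minus the change with fenofibrate in Ppara whole-body knockout (KO) livers. It was taken over all genes whose probes were detected, without selection on any gene's response, and uses 16 of the 34 arrays of the series and 15763 genes. The 16 arrays held 5 KO mice on fenofibrate, 3 KO mice on vehicle, 4 WT mice on fenofibrate and 4 WT mice on vehicle. All were male C57Bl/6J mice aged 14 weeks, fed Safe 04 chow freely, and each array held the liver RNA of 1 mouse. Fenofibrate was given at 100 mg/kg/day by gavage in 3% gum Arabic for 10 days, vehicle was gum Arabic alone, and livers were taken at ZT14, early in the dark phase. The other 18 arrays came from mice with a liver knockout of Ppara (LKO) and from their controls, labelled liver WT (LWT), on the same treatments. They share no mice with the 16. They give a second estimate of the same kind of difference, and they also enter the detection filter and the estimate of the spread behind each p-value. The allele, the deleted exon and, for the LKO mice, the Cre driver are not given in the sources used here.

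PPARA is a ligand-activated transcription factor of hepatocytes that binds DNA as a partner of RXR, and fenofibric acid, formed from fenofibrate, is one of its ligands. It is known for switching on fatty acid uptake, activation, oxidation in peroxisomes and mitochondria, and ketone body formation, mostly in fasting. In rodents its activation also enlarges the peroxisome compartment. A gene that needs PPARA for its response to the drug has a WT change that differs from its KO change.

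Levels are log2 signals relative to each array's 75th percentile, so a level of 0 is the 75th percentile and a change of 1 is a doubling. Positive differences mean a higher change in WT than in KO livers. A gene was called when its limma p-value, adjusted by Benjamini-Hochberg over all genes tested, was under 0.05. Genes were compared across samples only, never with one another. Between 50.6% and 63.2% of probes were well above background on an array, no spot was saturated, and replicate arrays of the 4 groups correlated at 0.979 to 0.995. The number of mice limits the precision: the median standard error of a difference was 0.21 on the log2 scale.

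Ppara itself was measured by 3 probes on chromosome 15 in mm9 coordinates, at 85632110 to 85632169, 85632534 to 85632593 and 85637193 to 85637252. On the probe used for the gene, levels were 5.10, 6.06, 5.97, 5.33 and 5.62 in KO livers on fenofibrate and 5.50, 5.49 and 5.03 in KO livers on vehicle. They were 7.06, 7.15, 6.84 and 7.12 in WT livers on fenofibrate and 6.86, 6.87, 7.06 and 7.28 in WT livers on vehicle. Every KO liver was below every WT liver. Over the 3 probes the KO signal was 22.5% to 33.2% of WT on vehicle and 26.6% to 37.2% of WT on fenofibrate, and all 3 probes were above background on all 16 arrays. Because the deleted part is not given, these probes do not check the deletion. Fenofibrate changed Ppara in neither genotype past the threshold, with a difference of -0.25 ± 0.22 (SE, adjusted p = 0.52).

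Some arrays stood apart before any comparison. Slide 1 carried 3 of the 16 arrays, namely replicate 1 of KO fenofibrate, of KO vehicle and of WT vehicle. On these arrays the authors' deposited values departed more from the scanner signals than on the others. In both vehicle groups replicate 1 was the lowest in Cyp4a14 and Cyp4a10. KO vehicle replicate 1 had the highest mean level over the acute-phase list, 6.34 against 5.60 and 5.75 in the other KO vehicle livers. KO vehicle replicate 2 was high in Kupffer cell and macrophage markers, with a mean level of 3.89 against 2.94 and 2.40 in the other KO vehicle livers. With 3 KO vehicle livers, each of them carries weight in every difference. The counts over all genes are therefore also given without these arrays.

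The difference was called for 1743 genes, 11.1% of those tested, and for 1017 in a fit of the 16 arrays alone. In 891 genes (5.65%) the change was higher in WT than in KO livers, and in 852 (5.41%) it was lower. At least 2-fold differences numbered 392 (2.49%) and 302 (1.92%). Without KO vehicle replicate 1 the counts were 984 higher and 1296 lower, and without KO vehicle replicate 2 they were 968 and 673. Without the 3 arrays of slide 1 they were 1135 and 1135, and 1423 of those 2270 genes were also called in the same direction with all arrays.

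Called changes with the drug were nearly all in WT livers. Fenofibrate against vehicle gave 2 called genes in KO livers (0.0127%) and 3384 in WT livers (21.5%), of which 1597 were higher (10.1%) and 1787 lower (11.3%). The KO comparison had 5 against 3 mice, 1865 of its genes had an unadjusted p under 0.05, and its called count was 102 without KO vehicle replicate 3 and 36 without KO vehicle replicate 2. The 891 genes with a positive difference had a median change of -0.12 in KO livers and 0.77 in WT livers, and the 852 with a negative one had medians of 0.18 in KO livers and -0.63 in WT livers. These comparisons share arrays with the difference, so a KO change of the opposite sign is partly built into the choice of genes. The KO change was near 0 when the genes were instead chosen in other mice. The 599 genes called positive in the LWT-LKO difference (3.8%) had median changes of -0.02 in KO livers and 0.87 in WT livers, and the 474 called negative (3.01%) had medians of 0.05 in KO livers and -0.68 in WT livers.

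**Figure D1:**
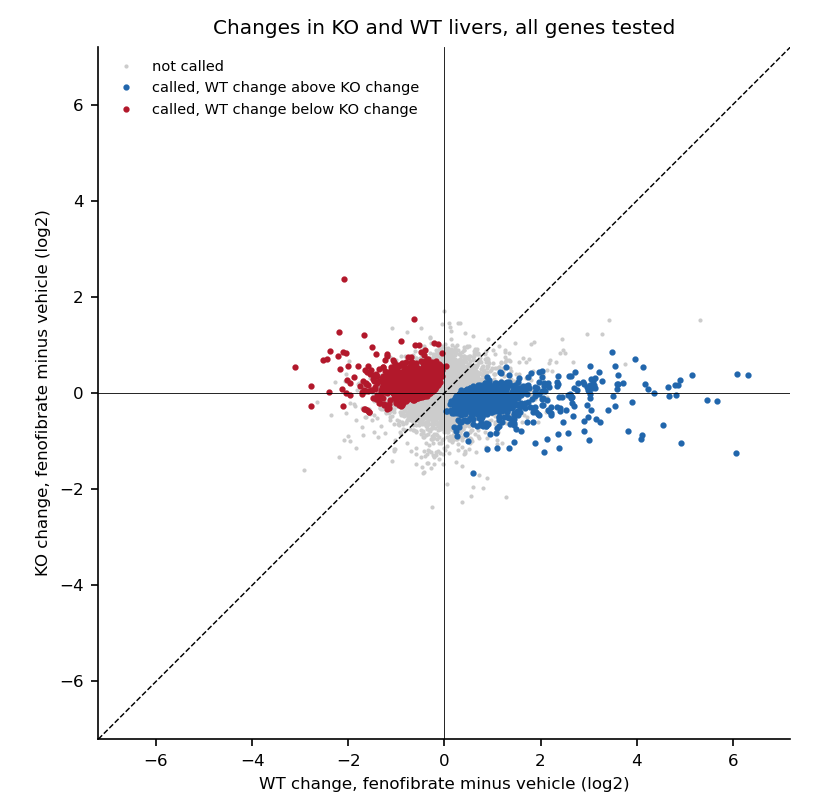
Change with fenofibrate in KO livers (vertical axis, log2) against the change in WT livers (horizontal axis, log2), 1 point for each of 15763 genes. Called differences are blue (891, WT change above KO change) or red (852, WT change below KO change), and they spread along the WT axis while KO changes stay close to 0 for most of them.

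Fatty acid uptake and storage genes held clear single examples. Of 33 measured genes for lipid uptake, droplets and lipolysis, 15 had a called positive difference and none a negative one. The list's median difference was 0.99, from median changes of 0.05 in KO livers and 1.08 in WT livers, against a median of -0.01 over all genes. Cd36, the fatty acid translocase of the plasma membrane, stood at -0.02, 0.16, 0.24, -0.12 and -0.03 in KO livers on fenofibrate and -0.29, 0.23 and -0.08 in KO livers on vehicle. In WT livers it was at 3.93, 4.22, 3.35 and 3.37 on fenofibrate and 0.29, 0.22, 0.25 and -0.30 on vehicle. The 4 WT livers on fenofibrate lay above all other livers, while the remaining 3 groups overlapped. Its difference was 3.51 ± 0.26 (adjusted p = 4.97e-10), with a 12.1-fold WT increase. Plin2, the coat protein of hepatocyte lipid droplets, had KO levels of 6.71, 5.86, 7.05, 7.01 and 6.01 on fenofibrate and 6.36, 6.32 and 6.74 on vehicle. Its WT levels were 9.0, 9.23, 8.95 and 9.09 on fenofibrate and 6.39, 6.64, 7.25 and 7.88 on vehicle, a difference of 1.97 ± 0.38 (adjusted p = 0.000674). WT vehicle livers differed among themselves by more than the KO livers did, and still none reached the fenofibrate group.

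Vldlr, a receptor for triglyceride-rich lipoproteins, rose 8.11-fold in WT livers and had a difference of 3.12 ± 0.62 (adjusted p = 0.000938). Unlike Cd36, its vehicle level was higher in KO livers (-0.34, -0.79 and 0.40) than in WT livers (-2.10, -1.58, -1.22 and -2.36). The droplet fusion proteins Cidea and Cidec had differences of 4.59 ± 0.88 and 3.98 ± 0.88. Cidec ran from -1.12 to 1.88 in KO livers on fenofibrate and from -1.59 to 1.68 in KO livers on vehicle, against 4.44 to 6.14 in WT livers on fenofibrate and -0.52 to 2.60 in WT livers on vehicle. The size of the Cidea difference depended on the background correction, at 2.07 with normexp, and it kept its call. It was well above background in 1 of 4 WT livers on vehicle. These genes are also adipocyte genes. Of 8 adipocyte markers 5 were measured, and the defining Adipoq, Lep and Plin1 did not pass the detection filter. The mean level of the 5 was 0.09 to 1.80 in KO livers on fenofibrate, -0.37 to 0.42 in KO livers on vehicle, 2.24 to 2.83 in WT livers on fenofibrate and 0.50 to 0.73 in WT livers on vehicle. Their summed signal on the linear scale, in units of the array's 75th percentile, did not follow it, at 83.2 to 339 in KO livers on fenofibrate, 94.1 to 199.6 in KO livers on vehicle, 169 to 334 in WT livers on fenofibrate and 217 to 419 in WT livers on vehicle. The 5 differences ran from -1.20 to 3.79. Whether fewer cells of a type or less RNA per cell lies behind such a level cannot be told apart in whole liver.

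Lpl, lipoprotein lipase, and Pltp, the phospholipid transfer protein, were the called positive members of the 24 apolipoprotein and lipoprotein genes, with differences of 2.93 ± 0.52 (adjusted p = 0.000291) and 2.73 ± 0.37 (adjusted p = 1.02e-05). The negative calls numbered 4 and included Apom, an apolipoprotein of HDL, at -0.71 ± 0.13. Lpl levels were -0.28 to 0.01 in KO livers on fenofibrate, -0.72 to -0.03 in KO livers on vehicle, 3.46 to 4.24 in WT livers on fenofibrate and 0.29 to 1.12 in WT livers on vehicle. The KO groups overlapped, and the WT groups were separated from each other and from both KO groups.

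Among 31 genes for fatty acid and triglyceride synthesis, 7 calls were positive and 3 negative. Mogat1, which acylates monoacylglycerol, had the list's highest difference, 4.62 ± 0.37 (adjusted p = 1.36e-09). It stood at -4.06, -3.70, -3.68, -3.69 and -3.37 in KO livers on fenofibrate and -3.49, -4.34 and -4.09 in KO livers on vehicle. WT livers were at 2.04, 2.51, 1.06 and 1.61 on fenofibrate and -2.83, -3.26, -3.10 and -3.16 on vehicle. One KO liver of each treatment was not well above background. Acacb, which makes the malonyl-CoA that restrains mitochondrial fatty acid entry, had a difference of 1.52 ± 0.25, and Lpin1, a phosphatidate phosphatase, of -1.41 ± 0.32. Lpin1 was at 5.52 to 6.74 in KO livers on fenofibrate, 5.63 to 6.31 in KO livers on vehicle, 4.34 to 5.45 in WT livers on fenofibrate and 5.92 to 6.33 in WT livers on vehicle. Fasn, the fatty acid synthase, had a difference of 0.60 ± 0.51 that did not pass (adjusted p = 0.504, 95% interval -0.44 to 1.64), and was singled out after its values were seen.

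**Figure D2:**
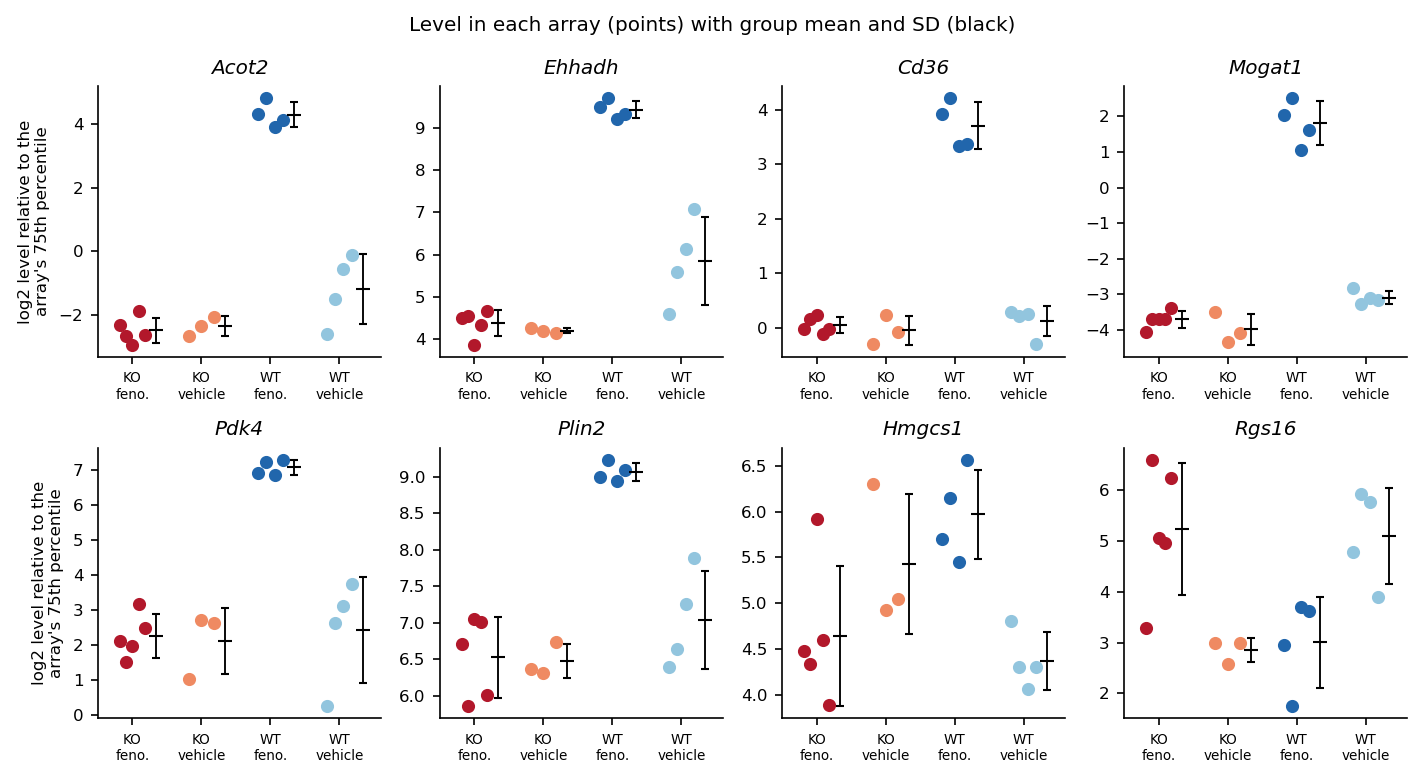
Level of 8 genes in each of the 16 livers (points; log2 relative to the array's 75th percentile), with group means and SD in black, for KO fenofibrate, KO vehicle, WT fenofibrate and WT vehicle from left to right. In Acot2, Ehhadh, Cd36, Mogat1, Pdk4 and Plin2 the 4 WT livers on fenofibrate lie above all other livers, whereas in Rgs16 the KO livers on fenofibrate lie above, and the WT livers on fenofibrate below, those on vehicle.

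PPARA is known to bind a repeat of AGGTCA half-sites spaced by 1 base. A run of AGGNCA, any 1 base and AGGNCA again, 13 letters in all, was searched on both strands in the 250 bases before the start of 28 genes, from the largest differences and well-known targets, that had a promoter in the RefSeq table (GRCm38.p6). None of the 28 held it, against 0.366% of all tested genes with a promoter. A second search, added after that result was seen, allowed 2 mismatches to AGGTCA, any 1 base and AGGTCA. It matched 3.88% of 695 genes called positive, 3.74% of 642 called negative and 3.35% of 12010 tested genes, so a match was about as frequent in each set. Cd36, Mogat1 and Plin2 were the 3 of the 28 genes with such a match, and they are shown for having it. Their levels separate the drug-treated WT livers from all others, but so do those of Acot2, Ehhadh and Pdk4, which held no match. Each sequence runs 5′ to 3′ on the gene's strand up to its start, with the match in capitals. Cd36 is at chr5:17835897-17836146 (minus strand), Mogat1 at chr1:78510810-78511059 (plus strand) and Plin2 at chr4:86670060-86670309 (minus strand).
Cd36: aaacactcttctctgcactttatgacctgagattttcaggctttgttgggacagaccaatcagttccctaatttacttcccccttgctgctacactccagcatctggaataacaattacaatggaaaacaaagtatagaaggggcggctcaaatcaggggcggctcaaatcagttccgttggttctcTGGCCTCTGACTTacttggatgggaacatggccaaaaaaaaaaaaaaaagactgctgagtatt
Mogat1: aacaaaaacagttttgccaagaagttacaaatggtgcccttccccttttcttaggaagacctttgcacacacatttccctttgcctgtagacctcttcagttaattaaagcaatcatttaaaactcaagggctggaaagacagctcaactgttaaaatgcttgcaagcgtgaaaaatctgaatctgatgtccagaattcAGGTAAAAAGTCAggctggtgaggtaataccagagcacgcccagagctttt
Plin2: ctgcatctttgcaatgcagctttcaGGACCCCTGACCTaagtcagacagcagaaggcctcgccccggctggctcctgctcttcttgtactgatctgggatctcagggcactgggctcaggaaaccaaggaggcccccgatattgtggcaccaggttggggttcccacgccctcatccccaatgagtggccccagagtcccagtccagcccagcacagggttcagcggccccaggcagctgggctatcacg
The matches began 63 bases before the start in Cd36, 51 in Mogat1 and 225 in Plin2. A match describes these letters and is no evidence of binding.

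Peroxisomal β-oxidation shortens very long chain fatty acids. Of 24 measured genes 11 were called, all positive, and the list's median difference was 0.58 from median changes of 0.08 in KO livers and 0.75 in WT livers. Ehhadh, the bifunctional enzyme of the pathway, stood at 4.50, 4.54, 3.87, 4.32 and 4.66 in KO livers on fenofibrate and 4.27, 4.19 and 4.14 in KO livers on vehicle. It stood at 9.50, 9.71, 9.22 and 9.33 in WT livers on fenofibrate and 4.58, 5.58, 6.14 and 7.08 in WT livers on vehicle. The KO groups overlapped, and every WT liver on vehicle was above every KO liver on vehicle. The difference was 3.41 ± 0.44 (adjusted p = 4.48e-06) on a 12.1-fold WT increase. Acaa1b, a peroxisomal thiolase, had a difference of 1.74 ± 0.31, and the carnitine acyltransferases Crat and Crot, which pass shortened acyl groups on, of 2.29 ± 0.50 and 1.35 ± 0.29. Crot was at 0.90 without the arrays of slide 1 (adjusted p = 0.0298).

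Peroxisome biogenesis genes, the peroxins, gave 8 positive calls and no negative one among 21. Pex11a, which drives peroxisome division, had a difference of 1.56 ± 0.29 (adjusted p = 0.000476). Pex16, a membrane assembly factor, had one of 0.92 ± 0.14 (adjusted p = 2.98e-05).

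Acyl-CoA thioesterases, which release fatty acids from CoA, had the highest median difference of any pathway list, 1.46, with 7 of 13 called, all positive. Acot2, the mitochondrial member, was at -2.33, -2.67, -2.93, -1.88 and -2.62 in KO livers on fenofibrate and -2.65, -2.34 and -2.05 in KO livers on vehicle. WT livers were at 4.32, 4.80, 3.89 and 4.13 on fenofibrate and -2.59, -1.50, -0.54 and -0.11 on vehicle. Fenofibrate raised it 44.4-fold in WT livers, and the difference was 5.61 ± 0.54 (adjusted p = 4.38e-08). Acot3, a peroxisomal member, had a difference of 3.03 ± 0.74 (adjusted p = 0.00684) that was 1.88 without the arrays of slide 1 (adjusted p = 0.0757). Acot4 had one of 1.75 ± 0.36 (adjusted p = 0.00143). The cytosolic Acot1, singled out after its values were seen, did not pass at 2.03 ± 0.74 (adjusted p = 0.0768), and passed at 3.02 without KO vehicle replicate 1 (adjusted p = 0.00181), the liver with the lowest level, 2.62. Acot1 to Acot6 are close copies in 1 gene cluster, so their probes may share signal.

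Microsomal ω-oxidation, the first step in making dicarboxylic acids from fatty acids, was mixed, with 3 positive and 2 negative calls among 18 genes. Cyp4f18, a fatty acid ω-hydroxylase, had a difference of 2.28 ± 0.15 (adjusted p = 4.19e-11). It was at -0.28 to 0.05 in KO livers on fenofibrate, 0.01 to 0.30 in KO livers on vehicle, 1.96 to 2.30 in WT livers on fenofibrate and -0.07 to 0.20 in WT livers on vehicle. Aldh3a2, the fatty aldehyde dehydrogenase that follows, had a difference of 2.05 ± 0.21 (adjusted p = 1.3e-07), whereas Cyp4f14 had one of -1.26 ± 0.18 (adjusted p = 1.6e-05).

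The classical PPARA target genes Cyp4a10 and Cyp4a14 did not pass on the probes used for them. Cyp4a14 was at -0.25, -1.51, -0.94, 2.61 and 0.89 in KO livers on fenofibrate and -4.11, 1.41 and 1.39 in KO livers on vehicle. In WT livers it was at 10.06, 10.15, 9.91 and 10.06 on fenofibrate and 2.58, 6.72, 7.60 and 8.28 on vehicle. The low vehicle value in each genotype was replicate 1, on slide 1. The difference was 3.16 ± 1.46 (adjusted p = 0.174), although WT livers rose 13.5-fold and KO livers on vehicle were lower than WT livers on vehicle by 6.73 on the log2 scale. It passed without the arrays of slide 1, at 3.65 (adjusted p = 0.0185), and without KO vehicle replicate 1, at 4.99 (adjusted p = 0.01). Cyp4a10 had a difference of 1.68 ± 0.96 (adjusted p = 0.283), and 2.46 without the arrays of slide 1 (adjusted p = 0.0245). A second Cyp4a10 probe passed at 2.55 (adjusted p = 0.0417), and Cyp4a14 passed with normexp background correction at 3.67 (adjusted p = 0.0467). The closely similar Cyp4a copies may share probe signal.

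**Figure D3:**
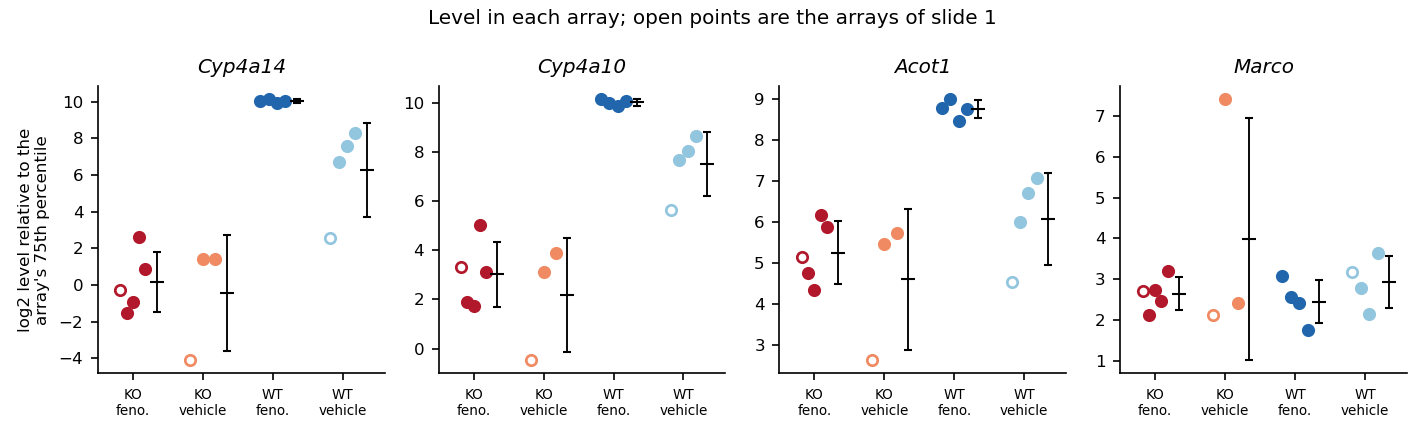
Level in each of the 16 livers (log2 relative to the array's 75th percentile) of Cyp4a14, Cyp4a10, Acot1 and Marco; open points are the 3 arrays of slide 1 and black marks are group means with SD. In the first 3 genes replicate 1 is the lowest liver of both vehicle groups, and in Marco KO vehicle replicate 2 stands alone at 7.42.

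Mitochondrial fatty acid oxidation and carnitine genes had 14 positive calls of 25 and no negative one, with a median difference of 0.56. Cpt1b, the muscle-type carnitine palmitoyltransferase, was at -1.75 to -1.04 in KO livers on fenofibrate, -1.67 to -0.98 in KO livers on vehicle, 0.59 to 1.50 in WT livers on fenofibrate and -1.32 to -0.73 in WT livers on vehicle, a difference of 2.17 ± 0.29 (adjusted p = 8.65e-06). The WT livers on fenofibrate stood above the remaining 3 groups, which overlapped. Slc22a5, the carnitine carrier of the plasma membrane, had a difference of 1.57 ± 0.35 (adjusted p = 0.00284) and Acadm, the medium-chain acyl-CoA dehydrogenase, one of 1.11 ± 0.18 (adjusted p = 9.37e-05). The liver isoform Cpt1a, the gate of mitochondrial fatty acid entry, did not pass. It was at 7.05, 6.97, 7.17, 7.06 and 6.86 in KO livers on fenofibrate and 6.88, 6.64 and 6.97 in KO livers on vehicle, against 7.21, 7.09, 7.12 and 7.12 in WT livers on fenofibrate and 6.72, 6.85, 6.89 and 7.06 in WT livers on vehicle. Its difference was 0.06 ± 0.12 (adjusted p = 0.796), with a 95% interval of -0.18 to 0.30.

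Ketogenesis genes gave 2 positive calls among 7, and the list's median difference was -0.04. The 29 genes of the respiratory chain held no called difference by limma, against 11.1% called over all genes, with a median of 0.05.

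The mitochondrial uncoupling proteins Ucp2 and Ucp3 rose 3.71-fold and 3.91-fold in WT livers, with differences of 1.96 ± 0.35 (adjusted p = 0.000333) and 1.99 ± 0.39 (adjusted p = 0.000783). Both started higher in KO livers than in WT livers on vehicle. Ucp3 was at 0.68 to 1.40 in KO livers on fenofibrate and 0.79 to 1.40 in KO livers on vehicle, against 1.10 to 2.36 in WT livers on fenofibrate and -0.17 to 0.11 in WT livers on vehicle.

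Cholesterol synthesis, the SREBP2-driven pathway, gave 8 positive calls of 26 and no negative one, with a median difference of 0.93. The median changes were -0.26 in KO livers and 0.54 in WT livers. Hmgcs1, the cytosolic HMG-CoA synthase, stood at 4.47, 4.34, 5.92, 4.60 and 3.89 in KO livers on fenofibrate and 6.30, 4.93 and 5.04 in KO livers on vehicle. It stood at 5.70, 6.15, 5.45 and 6.56 in WT livers on fenofibrate and 4.81, 4.31, 4.06 and 4.30 in WT livers on vehicle. The WT groups were separate, and the KO groups overlapped. Its difference was 2.38 ± 0.51 (adjusted p = 0.00202), from -0.78 ± 0.37 in KO livers (adjusted p = 0.40) and 1.60 ± 0.35 in WT livers. Hsd17b7, an enzyme of the late steps, had a difference of 1.39 ± 0.30 (adjusted p = 0.00258). Another Hsd17b7 probe passed at 1.60 (adjusted p = 0.000998), and a further one did not pass, at 0.31 (adjusted p = 0.57). Idi1, the isopentenyl isomerase, had a difference of 1.40 ± 0.40, which was 1.07 without KO vehicle replicate 1 (adjusted p = 0.0733). KO vehicle replicate 1 had the highest mean level of this list, 4.53 against 3.93 and 3.83 in the other KO vehicle livers, and its part in the result was not tested. The list's calls numbered 5 without that liver and 3 with the replicate block or with the 16 arrays alone. Sqle, the squalene epoxidase, was singled out after its values were seen and did not pass, at 0.98 ± 0.42.

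Glucose and glycerol handling gave 5 positive and 8 negative calls among 32 genes. Pdk4, the kinase that shuts off pyruvate dehydrogenase and so spares glucose, was at 2.11, 1.49, 1.96, 3.16 and 2.47 in KO livers on fenofibrate and 1.02, 2.69 and 2.61 in KO livers on vehicle. It was at 6.90, 7.24, 6.86 and 7.28 in WT livers on fenofibrate and 0.24, 2.62, 3.10 and 3.73 in WT livers on vehicle. All WT livers on fenofibrate were above all others, and the difference was 4.51 ± 0.72 (adjusted p = 7.01e-05). Ppp1r3c, a glycogen-targeting subunit of protein phosphatase 1, went the other way at -3.46 ± 0.84 (adjusted p = 0.00631). It was at 2.87 to 4.50 in KO livers on fenofibrate, 1.07 to 3.00 in KO livers on vehicle, -0.84 to 0.92 in WT livers on fenofibrate and 1.54 to 3.54 in WT livers on vehicle. With the replicate number as a block it missed the threshold (adjusted p = 0.0517).

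Bile acid synthesis and transport gave 3 positive and 7 negative calls among 25 genes. Slco1a1, an organic anion uptake carrier of the sinusoidal membrane, had no overlap between treatments in either genotype. It was at 4.88, 4.90, 4.66, 4.89 and 5.02 in KO livers on fenofibrate and 4.34, 4.36 and 4.28 in KO livers on vehicle, and at 3.47, 2.68, 3.59 and 3.82 in WT livers on fenofibrate and 4.75, 4.68, 4.65 and 4.59 in WT livers on vehicle. KO livers were higher on the drug and WT livers lower, with a difference of -1.82 ± 0.26 (adjusted p = 1.57e-05); the KO change of 0.54 alone did not pass (adjusted p = 0.27). Its relative Slco1a4 had a difference of -2.21 ± 0.34 (adjusted p = 4.62e-05), and the efflux pump Abcc4 one of 1.63 ± 0.23 (adjusted p = 1.84e-05). Fgfr4, the receptor for the intestinal hormone FGF15, and its coreceptor Klb had differences of -1.32 ± 0.17 and -1.10 ± 0.26. Cyp7a1, the rate-limiting enzyme of bile acid synthesis, singled out after its values were seen, ranged from 2.02 to 5.80 over the 8 KO livers, against 0.36 to 4.56 over the 8 WT livers, and did not pass at -2.31 ± 1.13 (adjusted p = 0.198).

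Amino acid breakdown and the urea cycle had 6 negative calls and no positive one of 38, which is 15.8% of the list against 11.1% called over all genes, with a median difference of -0.11. Gls2, liver glutaminase, had the largest of them at -0.87 ± 0.18 (adjusted p = 0.00159), with levels of 7.31 to 7.53 in KO livers on fenofibrate, 7.08 to 7.43 in KO livers on vehicle, 6.19 to 6.49 in WT livers on fenofibrate and 7.08 to 7.22 in WT livers on vehicle. Otc, the urea cycle's ornithine transcarbamylase, had a difference of -0.79 ± 0.14 (adjusted p = 0.000266). The mean level of 16 hepatocyte markers was 8.86 to 9.02 in KO livers on fenofibrate, 8.81 to 8.94 in KO livers on vehicle, 8.56 to 8.70 in WT livers on fenofibrate and 8.72 to 8.84 in WT livers on vehicle. It was lowest in the group in which these genes were lowest, and its part in the result was not tested.

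Xenobiotic metabolism gave 9 negative calls and 1 positive one of 40, with a median difference of -0.46. Cyp1a2, which metabolises caffeine and aromatic amines, had a difference of -1.35 ± 0.31 (adjusted p = 0.00338) and Gstp1, a glutathione transferase, one of -1.20 ± 0.22 (adjusted p = 0.000342). Cyp1a2 was at 4.60 to 5.26 in KO livers on fenofibrate, 4.39 to 4.68 in KO livers on vehicle, 3.47 to 3.96 in WT livers on fenofibrate and 4.51 to 4.83 in WT livers on vehicle. Cyp2b10, the marker gene of the receptor CAR, was singled out after its values were seen and had a difference of 2.04 ± 1.19 (adjusted p = 0.293). On vehicle it was at 4.93, 7.12 and 8.71 in KO livers and at 0.66, 2.07, 2.77 and 1.64 in WT livers.

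The circadian clock list had 3 negative calls of 19 (1 to 6 over the settings tried), among them Usp2, a clock-controlled deubiquitinase, at -1.11 ± 0.23 (adjusted p = 0.00126). Over all genes 5.41% were called negative. Hepatokines and the growth axis had 5 negative calls of 24 (1 to 7 over the settings tried), among them Igfals, which holds IGF1 in serum complexes, at -1.22 ± 0.31 (adjusted p = 0.00932). Male-biased liver genes had 6 negative calls of 17 and a median of -0.61, and female-biased genes had 3 positive calls of 12 and a median of 0.86. In the LWT-LKO difference the medians of these lists were -0.32 and -0.05. The 3 female-biased calls were Acot3, Acot4 and Slc22a27, a pair of thioesterases and an organic anion carrier whose call did not hold with normexp (adjusted p = 0.0649). Hsd3b5, a male-biased steroid reductase, had a difference of -2.97 ± 0.81 (adjusted p = 0.0153) that missed the threshold without the arrays of slide 1, at -2.58 (adjusted p = 0.0649). All mice here were male. Fgf21, a fasting hormone and known PPARA target, did not pass (adjusted p = 0.198), and no size is given because most KO readings were at background. It was not well above background in 4 of 5 KO livers on fenofibrate and 2 of 3 on vehicle, against 0.40, 1.71, 0.89 and 0.91 in WT livers on fenofibrate and -2.70, -0.47, -0.13 and 0.61 in WT livers on vehicle.

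Vnn1, a pantetheinase that feeds coenzyme A turnover, was close to background without PPARA. In KO livers it was not well above background in any of 5 livers on fenofibrate and in 2 of 3 on vehicle, and in WT livers it was at 4.99, 5.35, 4.90 and 5.02 on fenofibrate and 1.34, 1.81, 2.43 and 2.40 on vehicle. The WT increase was 8.38-fold (adjusted p = 1.28e-06). The difference was called (adjusted p = 0.000718), but its KO part compares readings mostly at background, so no size is given. Ppcs, an enzyme of coenzyme A synthesis, had one of 1.75 ± 0.20 (adjusted p = 9.34e-07).

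The acute-phase and inflammatory list had 1 positive and 4 negative calls of 39 and a median difference of -0.00. Its calls made up 12.8% of the list, close to the 11.1% called over all genes. The positive one was Il1rn, the interleukin-1 receptor antagonist, at 2.74 ± 0.40 (adjusted p = 2.48e-05), with levels of -3.38 to -2.22 in KO livers on fenofibrate, -3.81 to -1.99 in KO livers on vehicle, -1.30 to -0.58 in WT livers on fenofibrate and -3.59 to -3.50 in WT livers on vehicle. The size fell to 1.11 with normexp background correction, and the call held (adjusted p = 0.000633). Lcn2, an iron-scavenging acute-phase protein singled out after its values were seen, differed strongly between genotypes on vehicle, at 9.49, 6.55 and 7.52 in KO livers and 1.28, 1.32, 1.18 and 2.07 in WT livers. Its difference in response of 2.80 ± 1.18 did not pass (adjusted p = 0.13). The 15 Kupffer cell and macrophage markers held no called difference by limma, against 11.1% called over all genes, a share that is few genes in a list of 15. Of their differences 14 were positive, with a median of 0.54. KO vehicle replicate 2, high in these markers, enters all of them, and its part was not tested. Marco, a scavenger receptor of these cells, was at 2.11, 7.42 and 2.43 in KO livers on vehicle. The Marco difference of 0.86 was -0.86 without KO vehicle replicate 2. Red blood cell markers, of which 4 of 8 were measured, had a mean level of 3.30 to 3.99 in KO livers on fenofibrate, 2.44 to 3.54 in KO livers on vehicle, 2.05 to 2.54 in WT livers on fenofibrate and 2.23 to 2.76 in WT livers on vehicle.

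**Figure D4:**
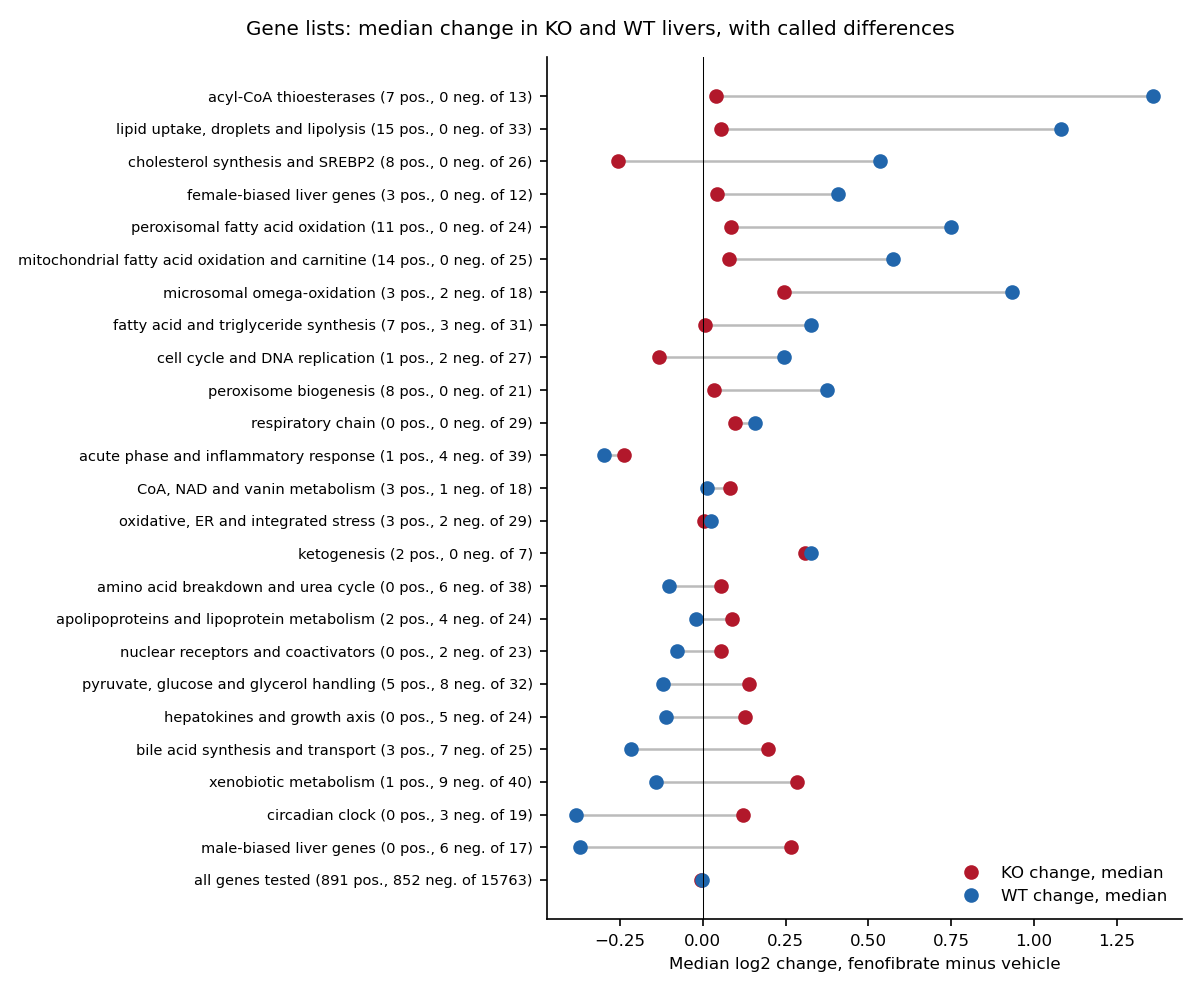
Median change with fenofibrate (log2, horizontal axis) in KO livers (red) and WT livers (blue) for each gene list and for all genes (bottom row), with the number of called positive and negative differences of the genes measured in brackets. KO medians lie within 0.31 of 0 in every list shown, while WT medians reach 1.36 in the acyl-CoA thioesterases.

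Genes with the largest differences were not all of lipid metabolism. Rad51b, a gene of DNA repair by homologous recombination, had the largest of all named genes, 7.32 ± 0.76 (adjusted p = 1.3e-07). Without the arrays of slide 1 the Rad51b difference was 5.99 (adjusted p = 5.47e-06) and no longer the largest. Rad51b stood at -0.02, 1.02, 1.62, 0.03 and -0.23 in KO livers on fenofibrate and 3.29, 0.89 and 1.03 in KO livers on vehicle. It stood at 3.84, 4.53, 3.52 and 3.72 in WT livers on fenofibrate and -3.46, -2.58, -1.51 and -1.13 in WT livers on vehicle. The vehicle values of 3.29 and -3.46 were those of replicate 1, on slide 1. KO livers on vehicle were thus all above WT livers on vehicle, and WT livers rose 67.2-fold. Among 27 cell cycle and DNA replication genes Rad51b was the 1 positive call, beside 2 negative ones. Together these were 11.1% of the list, the same share as the 11.1% called over all genes. Krt23, a type I keratin, rose 35.3-fold in WT livers with a difference of 4.78 ± 0.47 (adjusted p = 5.35e-08). It stands on the cholangiocyte list and was its 1 called member of 11. The mean level of that list was -2.54 to -2.22 in KO livers on fenofibrate and -2.40 to -2.13 in KO livers on vehicle. It was -1.41 to -0.92 in WT livers on fenofibrate and -1.96 to -1.57 in WT livers on vehicle. This mean includes Krt23 itself, so it is no separate measure. The list's median changes were 0.01 in KO livers and 0.41 in WT livers. Ctse, the protease cathepsin E, was not well above background in either KO group or in WT livers on vehicle. It was at -0.85, -0.22, -1.46 and -1.19 in WT livers on fenofibrate, at least 10.9-fold higher than on vehicle with the background correction used here. The size of the Ctse difference depended on that correction. It was 5.84 as fitted here and 1.80 with normexp, where it kept its call (adjusted p = 1.33e-06).

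The largest negative difference was that of Rgs16, which shortens signalling by G proteins. It was at 3.28, 6.59, 5.05, 4.96 and 6.23 in KO livers on fenofibrate and 3.00, 2.59 and 2.99 in KO livers on vehicle. In WT livers it was at 2.95, 1.75, 3.69 and 3.62 on fenofibrate and 4.79, 5.91, 5.77 and 3.89 on vehicle. Both genotypes separated by treatment, in opposite directions, with changes of 2.36 ± 0.67 in KO livers (adjusted p = 0.21) and -2.09 ± 0.65 in WT livers (adjusted p = 0.0208). The difference was -4.45 ± 0.94 (adjusted p = 0.00176). Map2k6, a kinase of the p38 pathway, and Sdr9c7, a short-chain dehydrogenase, were also among the 12 largest, at -2.98 ± 0.49 (adjusted p = 0.000105) and -2.92 ± 0.37 (adjusted p = 4.11e-06). Sdr9c7 was at 0.53 to 1.64 in KO livers on fenofibrate, 0.56 to 1.36 in KO livers on vehicle, -2.73 to -1.95 in WT livers on fenofibrate and 0.30 to 0.66 in WT livers on vehicle, a 6.89-fold WT decrease.

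Opposite changes of this kind, with an unadjusted limma p under 0.05 in KO livers, were met by 353 of the 1743 called genes. These genes were called on the same KO arrays, so such changes are partly built into their choice. Over all 15763 genes, 1865 had an unadjusted p under 0.05 in KO livers, in either direction. The 2 genes called in the KO livers themselves were Naaladl2, a peptidase-like membrane protein, and Itm2b, a membrane protein known from amyloid disease. Naaladl2 was at 0.81, 1.13, 0.81, 0.69 and 0.95 in KO livers on fenofibrate and -0.28, 0.54 and -0.09 in KO livers on vehicle, against 1.11, 0.94, 1.05 and 1.20 in WT livers on fenofibrate and 0.87, 1.15, 1.20 and 1.26 in WT livers on vehicle. Fenofibrate thus went with KO levels close to those of WT livers, and the difference was -0.87 ± 0.20 (adjusted p = 0.00403). A second Naaladl2 probe had a difference of -0.73 that did not pass (adjusted p = 0.149). Itm2b had KO levels of 5.88 to 6.42 on fenofibrate and 5.47 to 5.88 on vehicle, and a difference of -0.55 ± 0.14 (adjusted p = 0.00887, and 0.0977 in a fit of the 16 arrays alone).

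A rule for responses shared by both genotypes was met by few genes, and it leans on the KO comparison of 5 against 3 mice. Of 15763 genes tested, 3384 were called in WT livers. Of these, 16 changed at least 2-fold there, had a KO change of the same sign at an unadjusted p under 0.05 and had no called difference. A shared response too small to pass in KO livers is missed, so the count does not give the number of shared responses. Ihh, the hedgehog ligand, was the leading one, with changes of -1.33 ± 0.45 in KO livers (adjusted p = 0.27) and -2.19 ± 0.44 in WT livers (adjusted p = 0.000463). It was at -2.28 to -0.91 in KO livers on fenofibrate, -1.01 to 0.41 in KO livers on vehicle, -3.66 to -2.73 in WT livers on fenofibrate and -1.81 to 0.66 in WT livers on vehicle. Its difference of -0.85 ± 0.63 has a 95% interval of -2.14 to 0.43, so its size is poorly known.

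On vehicle alone, KO against WT livers gave 4741 called genes (30.1%), 2201 higher and 2540 lower. A fit of these vehicle arrays alone, with the replicate number as a block, called 1136. Several genes above thus started from unequal levels in the 2 genotypes. Ehhadh was lower in KO livers by 1.65 on the log2 scale, while Rad51b was higher by 3.90 and Vldlr by 1.57.

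The liver knockout gave a second estimate of the difference in separate mice, where 1073 genes were called (6.81%). Across 15763 genes the WT-KO and LWT-LKO differences correlated at r = 0.711 (Spearman's rho 0.582), a description over genes that share arrays and are not independent replicates. Of the 891 genes called positive, 437 (49.0%) were also called positive in the LWT-LKO difference, which is 73.0% of the 599 called there. Of the 852 called negative, 300 (35.2%) were also called negative, which is 63.3% of 474. None was called in opposite directions. The 2 differences were then tested against each other: no gene was called by limma in either direction, and 672 genes had an unadjusted p under 0.05. The median standard error in that test was 0.29, against 0.21 for the WT-KO difference. A gene without a call there is therefore not shown to have equal differences. Cd36 was 3.51 ± 0.26 in the WT-KO and 3.93 ± 0.25 in the LWT-LKO difference, Acot2 was 5.61 ± 0.54 and 4.61 ± 0.51, and Rad51b was 7.32 ± 0.76 and 6.65 ± 0.71. Cyp4a14, uncalled in both, was at 3.16 ± 1.46 in the WT-KO and -1.69 ± 1.37 in the LWT-LKO difference.

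**Figure D5:**
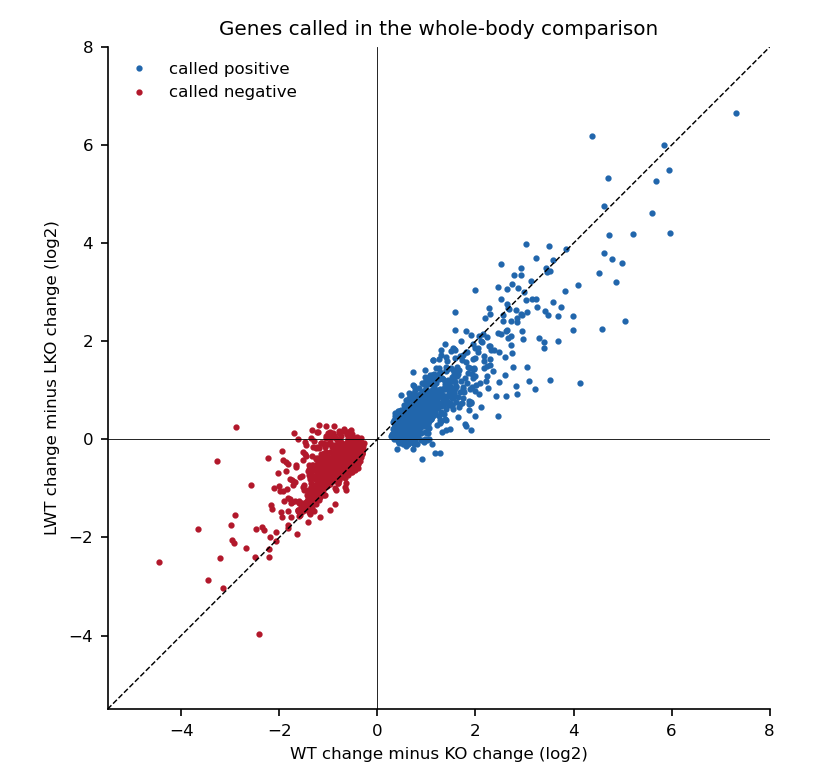
LWT change minus LKO change (vertical axis, log2) against WT change minus KO change (horizontal axis, log2) for the 1743 genes called on the horizontal axis, blue for positive and red for negative; the dashed line marks equal values. Of these genes 868 of 891 positive and 809 of 852 negative ones have the same sign in the separate mice.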

How the data were processed

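Total liver RNA (TRIzol) was labelled with Cy3 and hybridised to one-colour Agilent mouse arrays, per the labels' protocols. The deposited scanner files hold background-subtracted signal intensity per spot written by Feature Extraction software, version 10.10.1.1 per the file headers. The authors' deposited value table holds log2 values whose columns all have a median of 7.63; its scale was read from its match to the scanner values, its centring is unstated, and it served only as an alternative. Here 59305 spots were averaged to 55681 probes with flagged spots missing, scaled to each array's 75th percentile on the log2 scale, and kept if all arrays of 1 or more groups had the probe well above background. RefSeq tables named 32527 probes, by accession (27229), symbol (3586), synonym (565) or the file's own name (1147), and the brightest probe stood for a gene. Of 27 second probes of called named genes, 2 gave the opposite sign and 7 no call. limma 3.58.1 (R 4.3.3) fitted 8 group means over 34 arrays (lmFit, contrasts.fit, eBayes), with Benjamini-Hochberg adjustment over 15763 genes at 0.05; 86 values were missing in the fit.

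Members and gene lists were chosen with earlier results of these data known. Genes were named by rule: Ppara, the 12 largest called differences each way, up to 4 called members per pathway list and 2 per marker list, the genes called in KO livers, up to 6 each of shared and opposite responses, and 12 anchor genes; others are said to be chosen after their values were seen, and some genes that the rule takes are not reported here. A gene not well above background on every array of a group has only a bound there, computed as "at least" from the lowest signal above background. Each array was 1 mouse per the labels. Whether replicate numbers pair livers was checked from deviations from the group means. Same-numbered KO and WT livers on vehicle correlated at 0.402, 0.172 and 0.12. The 0.402 was that of replicate 1, with both livers on slide 1, so number and slide cannot be told apart there. Fenofibrate and vehicle livers did not pair, with -0.108 to 0.0895 in WT and -0.0877 to 0.113 in KO livers. The 0.113 was also that of replicate 1 on slide 1. Slides are numbered from the file headers, and their correlation as a random block was 0.149. Alternatives covered the background correction, normalization, detection filter, probe rule, arrays in the fit, slide, replicate block, the authors' table and leaving out single arrays. The fit was tested on simulated data. Promoters came from RefSeq (GRCm38.p6), 250 bases before each start.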

Additional observations from a re-analysis of the deposited data

Results flagged for a closer look

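The change with fenofibrate differed between WT and KO livers by limma's test of the difference itself in 891 genes with a positive and 852 genes with a negative difference. These are the genes the report describes.

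Single livers that stood apart from the other livers of their group were searched for in 71 genes named in the report, in the 3 groups of 4 or 5 livers; the KO vehicle group, with 3 livers, was not examined. Chance alone marks about 1 in 20 such groups, and 7 of 213 were marked. Of these, 3 were WT vehicle replicate 4, which was low in Cd36 at -0.30, against 0.22 to 0.29 in the other WT vehicle livers, low in Map2k6 at 1.27, against 2.27 to 2.40, and high in Lcn2 at 2.07, against 1.18 to 1.32. In the same group replicate 1 was high in Fgfr4 at 4.35, against 4.05 to 4.10, and replicate 3 was low in Apom at 7.91, against 8.07 to 8.10. KO fenofibrate replicate 3 was high in Pltp at 1.87, against 1.37 to 1.44 in the other KO fenofibrate livers, and in Fgf21 at -4.46, against -6.43 to -6.05, where the others were not well above background.

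Probes without a gene name were left out of the comparison by gene. Of 9871 such probes that passed the detection filter, 175 had a called positive and 341 a called negative difference, 5.23% together. Which transcripts they measure was not examined.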

How the results depend on the processing

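In a fit of the 16 arrays alone the difference was called for 514 positive and 503 negative genes, against 891 and 852 with all 34 arrays, and the WT change for 2214 genes, against 3384. Leaving out 1 array at a time gave 716 to 1043 positive and 653 to 1296 negative differences, the 1296 without KO vehicle replicate 1. It gave 2554 to 3112 called WT changes, 0 to 102 called KO changes, 3835 to 5020 called genes between KO and WT livers on vehicle and 801 to 1091 called LWT-LKO differences. The 102 came without KO vehicle replicate 3. The KO count of 2 was 0 with normexp background correction, with the mean of all probes of a gene, with the 16 arrays alone and with the replicate block. It was 4 with quantile normalization, 5 with either other detection filter, 8 with slide as a random block, 18 with slide as a fixed block, 14 with the authors' value table and slide as a fixed block, and 16 without the arrays of slide 1, a setting chosen after seeing the data. The test between the WT-KO and LWT-LKO differences gave 0 or 1 gene throughout, the 1 with the replicate block and without LWT fenofibrate replicate 3, LWT fenofibrate replicate 5 or LKO fenofibrate replicate 5. The causes were not tested.

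With the replicate number as a block, 665 positive and 662 negative differences were called, and 1138 of these 1327 genes were also called in the same direction without it. For KO against WT livers on vehicle, the block was fitted on those vehicle arrays alone. That fit called 1136 genes, against 4741 in the fit of 34 arrays without a block. The part of the block and that of the fewer arrays cannot be told apart. Under normexp 1453 of 1702 called differences were shared with the setting used in the report, under quantile normalization 1698 of 1942, and with the values the authors deposited 1469 of 1943. Positive calls made up 51.1% to 53.6% of them under these scalings and the slide block. No named gene's called difference changed sign under any setting tried. Within slides that held both treatments, 1 slide for WT and 3 for KO livers, the median difference was 0.81 over genes called positive and -0.76 over genes called negative, which were chosen on arrays that include these. Called members of a list ranged over the settings from 3 to 15 positive in cholesterol synthesis, 4 to 9 positive in fatty acid and triglyceride synthesis, 3 to 8 positive in ω-oxidation, 5 to 8 positive in the peroxins and 2 to 9 negative in glucose and glycerol handling. In simulated data of 15763 genes, 64.18% of genes given a WT minus KO difference of 1 on the log2 scale were recovered. The share was 9.09% for a difference of 0.5 and 91.04% for 2, so in the simulation most differences of 0.5 went uncalled. Only 66 genes were given a difference of 0.5, 67 one of 1 and 67 one of 2. In the data 1743 genes were called. With fewer changed genes the Benjamini-Hochberg adjustment is stricter, so the shares in the data may be higher than these.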
